A study of Mus musculus with 9 samples.

Results

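Mmu-miR-221-3p and mmu-miR-222-3p, the pair made from the Mir221 and Mir222 genes, and mmu-miR-135a-5p, mmu-miR-135b-5p and mmu-miR-135a-1-3p of the miR-135 family were followed in the hippocampus of mice given saline, LPS or LPS and gastrodin (GAS). They were taken by name from a table of read counts, so that 5 of 1448 listed mature miRNAs were chosen, and 5 of the 628 with enough reads to be tested. Small RNA of the hippocampus of male C57BL/6J mice was sequenced in 9 libraries, 3 per group, which are taken here as 1 mouse each. The saline group received 0.9% saline and no LPS. The LPS group received a single intraperitoneal injection of 1 mg/kg LPS, a bacterial endotoxin that starts an acute inflammation, and by the labels also 0.12% saline. The LPS + GAS group received the same dose of LPS and 100 mg/kg GAS, a phenolic glucoside from the orchid Gastrodia elata, 1 h later by the labels. The study's methods also have GAS given together with LPS, and its abstract has GAS given before LPS. The order is therefore unsettled. The mice were adult, with no further age stated. In such bulk tissue a change in the number of cells of a type cannot be told apart from a change in the RNA per cell.

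A miRNA is a short RNA that, loaded into an Argonaute protein, pairs with messenger RNAs mainly through its seed, bases 2 to 8 counted from the 5′ end, and lowers their stability or translation. Each is cut from a hairpin precursor whose arms give a 5p and a 3p product, of which usually 1 is kept. MiR-221 and miR-222 are known for targeting the cell cycle inhibitor Cdkn1b and the receptor Kit and are well studied in vessel walls and in tumours. MiR-135 is known in the brain for targeting the serotonin transporter Slc6a4 and the receptor Htr1a. MiR-135 has also been linked to mood, and miR-221 and miR-222 to inflammation.

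The 5 mature sequences are shown because their seeds divide the members into pairs, and because those pairs decide which reads can be told apart. They are written 5′ to 3′ as the deposited table lists them, with the seed in capitals.
miR-221-3p: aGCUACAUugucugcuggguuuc
miR-222-3p: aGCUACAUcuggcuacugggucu
miR-135a-5p: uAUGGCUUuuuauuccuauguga
miR-135b-5p: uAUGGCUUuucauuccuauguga
miR-135a-1-3p: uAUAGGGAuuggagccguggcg
MiR-221-3p and miR-222-3p shared the seed and the first 8 bases, but only 11 of 23 positions in all when aligned from the 5′ end. MiR-135a-5p and miR-135b-5p differed by the substitution U11C alone, counting positions from 1 at the 5′ end, and that base alone separates their reads. No other row of the table had either seed, and 0 other rows had the seed of miR-135a-1-3p, which comes from the opposite arm of a miR-135a hairpin and is not a seed relative of miR-135a-5p.

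The positions below are those of RefSeq and GENCODE M21 on GRCm38, the build the submitters' processing notes name. Mir221 lay at chrX:19146294-19146388 and Mir222 at chrX:19146893-19146971, both on the minus strand, with 504 bases between them and no host gene in GENCODE over either. Mir135b lay at chr1:132198088-132198184 on the plus strand, in an intron of the protein-coding genes Lemd1 and AC124108.1. MiR-135a-5p came from 2 genes. Mir135a-1 lay at chr9:106154124-106154213 on the plus strand, in an intron of the antisense transcript gene D030055H07Rik and over exons of 2 transcripts of Glyctk, the glycerate kinase gene on the other strand. Mir135a-2 lay at chr10:92072086-92072185 on the minus strand, in an intron of the long non-coding RNA Rmst. Both hairpins are printed from RefSeq with the mature arms in capitals, since the 5p arms are identical and the 3p arms are not.
Mir135a-1: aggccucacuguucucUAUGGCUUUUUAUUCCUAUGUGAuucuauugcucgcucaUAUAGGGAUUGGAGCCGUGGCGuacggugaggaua
Mir135a-2: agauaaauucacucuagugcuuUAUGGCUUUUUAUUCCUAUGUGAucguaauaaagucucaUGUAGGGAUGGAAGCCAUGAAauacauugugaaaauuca
A read of miR-135a-5p cannot be assigned to either gene. Reads of miR-135a-1-3p and of miR-135a-2-3p can, but they were few.

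The libraries held between 10119758 and 11457656 reads on miRNAs, and the 5 members together took 0.508% to 0.837% of them. Levels are given as CPM, each library's reads scaled to a common total, after edgeR's TMM normalization, which corrects library totals for miRNAs that take an uneven share of the reads. The TMM factors ran from 0.914 in saline replicate 1 to 1.19 in LPS replicate 2. A list of 8 neuronal miRNAs, led by miR-124-3p and known from neurons of the forebrain, summed to 114697 to 152391 CPM per library. A list of 15 choroid plexus and ependyma miRNAs, led by miR-204-5p, summed to 10015 to 30661 CPM in the saline group, 9879 to 23068 CPM in the LPS group and 12921 to 58817 CPM in the LPS + GAS group, and 5 red blood cell miRNAs summed to 2065 to 4317, 2189 to 3274 and 4606 to 6222 CPM. None of these markers was at 0 in all 9 libraries, 0 of the 15 and 0 of the 5 were called in any of the 3 comparisons, and their part in the values of the members was not tested.

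MiR-222-3p and miR-135a-5p were among the more abundant miRNAs of the hippocampus, miR-221-3p and miR-135b-5p stood below them, and miR-135a-1-3p was close to the limit of detection. The mean level over the 9 libraries was 2615 CPM for miR-222-3p (rank 50 of 1448), 2462 CPM for miR-135a-5p (rank 53), 814 CPM for miR-221-3p (rank 91), 434 CPM for miR-135b-5p (rank 113) and 0.771 CPM for miR-135a-1-3p (rank 624). The sequences are 22 or 23 bases long, and the order was the same per base. MiR-222-3p was above miR-135a-5p in 6 of 9 libraries, with a ratio of levels from 0.648 to 1.43, so these neighbours in the order did not differ beyond their spread. MiR-135a-5p was above miR-221-3p in 9 of 9 libraries, by 2.05 to 4.93 times. MiR-221-3p was above miR-135b-5p in 8 of 9 libraries, and LPS + GAS replicate 2 was the exception. The ratio there was 0.854, and its highest value was 4.09. MiR-135b-5p was above miR-135a-1-3p by at least 215 times in 9 of 9 libraries. Ligation and amplification favour some small RNAs over others, so an order between miRNAs holds for these libraries and not for copies per cell.

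**Figure D1:**
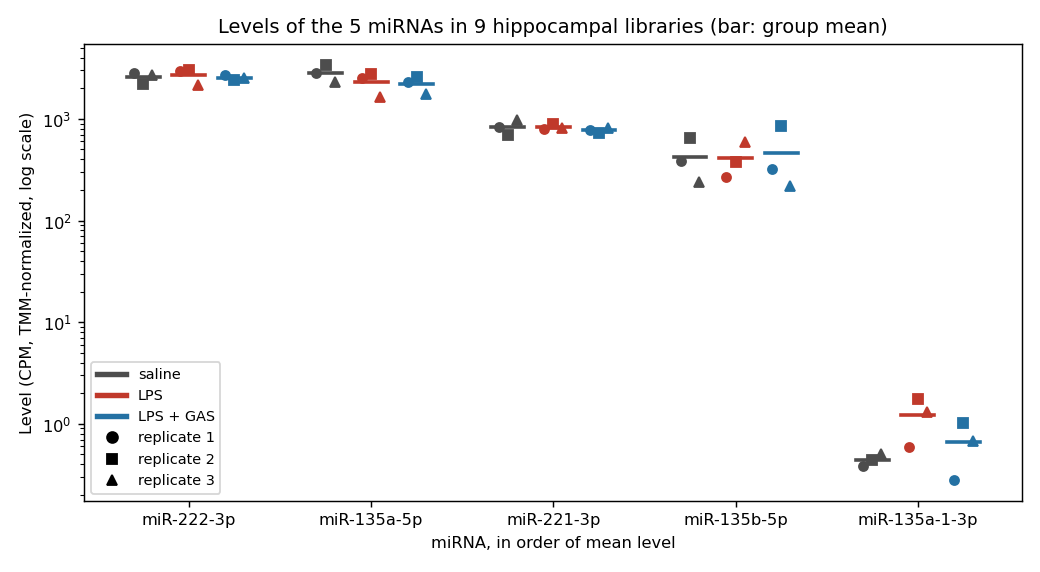
Level of each member in CPM after TMM normalization (vertical axis, log scale) in the 9 libraries, with 1 symbol per mouse, colours for the saline, LPS and LPS + GAS groups and a bar at each group mean. The 3 groups lie over each other for the 4 abundant members, miR-135b-5p is the most scattered of these, and the 3 LPS values of miR-135a-1-3p lie above its 3 saline values, all below 2 CPM.

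The levels of miR-221-3p and miR-222-3p overlapped between the 3 groups, and no difference between groups passed the test. MiR-221-3p had 8694, 7814 and 9749 reads in saline mice 1, 2 and 3, 7991, 10766 and 8064 in LPS mice and 8404, 7217 and 8375 in LPS + GAS mice. In CPM these were 830.5, 691 and 983 in the saline group, 795, 894 and 811 in the LPS group and 784, 730.0 and 807 in the LPS + GAS group. The lowest and the highest value were both in the saline group, so the LPS and LPS + GAS libraries lay inside its range. LPS replicate 2 had the most reads but, with the highest TMM factor, not the highest level.

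The mean of miR-221-3p was 835 ± 146 CPM with saline, 834 ± 53.2 CPM with LPS and 774 ± 39.5 CPM with LPS + GAS (SD, n = 3 mice each). Its fitted log2 fold change for LPS vs saline was −0.0019 (95% interval −0.38 to 0.37), which turned to between 0.010 and 0.057 under 8 of 10 other settings. The settings that did not turn it, robust fitting and no minimum fold change, leave the fitted value as it is. In LPS + GAS vs LPS it was −0.11 (−0.48 to 0.27) and in LPS + GAS vs saline −0.11 (−0.48 to 0.27). The adjusted p was 0.996, 0.975 and 0.998 in edgeR's quasi-likelihood test, adjusted by Benjamini-Hochberg over the 628 miRNAs. The intervals leave out a change of 1 on the log2 scale in either direction, the least change that would have been called.

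MiR-222-3p, its cluster partner, had 29527, 24979 and 26989 reads in saline mice, 29777, 36482 and 21453 in LPS mice and 28947, 23879 and 26116 in LPS + GAS mice. This corresponds to 2820.5, 2209 and 2720.2 CPM in saline mice, 2964, 3031 and 2158 in LPS mice and 2702, 2415 and 2516 in LPS + GAS mice. Here the lowest and the highest value were both in the LPS group, in replicates 3 and 2. The means were 2583 ± 328, 2717 ± 486 and 2544 ± 145 CPM with saline, LPS and LPS + GAS (SD, n = 3 mice each). Its fitted log2 fold change for LPS vs saline was 0.073 (95% interval −0.32 to 0.47), −0.095 in LPS + GAS vs LPS (−0.49 to 0.30) and −0.022 in LPS + GAS vs saline (−0.42 to 0.38). The last of these was 0.038 with DESeq2's size factors. By edgeR's quasi-likelihood test the adjusted p was 0.992, 0.989 and 0.998.

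As the genes lie next to each other, the ratio of the pair was read within each library, where no normalization enters. MiR-221-3p had 0.294, 0.313 and 0.361 reads per read of miR-222-3p in the saline group, 0.268, 0.295 and 0.376 in the LPS group and 0.290, 0.302 and 0.321 in the LPS + GAS group. MiR-222-3p was thus the more abundant in 9 of 9 libraries, and the ratio stayed between 0.268 and 0.376. The mean log2 ratio was −1.64, −1.69 and −1.72 in the 3 groups. The differences were −0.053 in LPS vs saline (p = 0.8), −0.027 in LPS + GAS vs LPS (p = 0.9) and −0.081 in LPS + GAS vs saline (p = 0.6), by exact two-sided permutation tests, in which 3 libraries against 3 cannot give a p below 0.1. All adjusted p over the 6 ratio tests were 1.0 by these exact tests.

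MiR-135a-5p had 29797, 38547 and 22838 reads in saline mice, 25607, 32928 and 16500 in LPS mice and 24883, 25403 and 18309 in LPS + GAS mice. The levels were 2846, 3409 and 2302 CPM in saline mice, 2549, 2735 and 1659.7 in LPS mice and 2322, 2569.5 and 1764 in LPS + GAS mice. Replicate 2 was the highest and replicate 3 the lowest in each group, and the groups overlapped. The means were 2852 ± 554 CPM with saline, 2315 ± 575 CPM with LPS and 2219 ± 413 CPM with LPS + GAS (SD, n = 3 mice each).

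The fitted log2 fold change of miR-135a-5p for LPS vs saline was −0.30 (standard error 0.24, 95% interval −0.84 to 0.23) and −0.36 in LPS + GAS vs saline (standard error 0.24, −0.90 to 0.17). It was −0.061 in LPS + GAS vs LPS (−0.60 to 0.47). The adjusted p by edgeR's quasi-likelihood test was 0.992, 0.998 and 0.996 in this order. Both comparisons with the saline group kept their sign under all 20 other settings, from −0.43 to −0.10 and from −0.50 to −0.16, and none of these settings passed the threshold. Among these settings, robust fitting and no minimum fold change leave the fitted value as it is. Both comparisons share the 3 saline libraries. In LPS + GAS vs saline, where libraries of the same number deviated together, miR-135a-5p was lower in 3 of 3 pairs. It was also lower in 3 of 3 pairs in LPS vs saline, where libraries of the same number did not all deviate together. The labels state no pairing. The share of all tested miRNAs lower in 3 of 3 pairs is not given here, so no conclusion is drawn from these counts. With the replicate number as a block the values were −0.36 in LPS + GAS vs saline and −0.32 in LPS vs saline, each with a standard error of 0.14. Their adjusted p was 0.998 and 0.997 by edgeR's quasi-likelihood test.

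MiR-135b-5p, which differs from miR-135a-5p by a base, varied much more from mouse to mouse. It had 4036, 7380 and 2381 reads in saline mice, 2702, 4520 and 5883 in LPS mice and 3411, 8455 and 2287 in LPS + GAS mice. The levels were 386, 653 and 240.0 CPM in saline mice, 269, 375 and 592 in LPS mice and 318, 855 and 220.3 in LPS + GAS mice. LPS + GAS replicate 2 was the highest of all and LPS + GAS replicate 3 the lowest, 3.88 times apart within a treatment group. In each group 1 library stood above the others, saline replicate 2, LPS replicate 3 and LPS + GAS replicate 2.

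The means of miR-135b-5p were 426 ± 209 CPM with saline, 412 ± 164 CPM with LPS and 465 ± 342 CPM with LPS + GAS (SD, n = 3 mice each). Its fitted log2 fold change for LPS vs saline was −0.048 (0.0040 with DESeq2's size factors), 0.17 in LPS + GAS vs LPS and 0.12 in LPS + GAS vs saline, each with a standard error of 0.53. The 95% intervals ran from −1.24 to 1.14, from −1.02 to 1.36 and from −1.07 to 1.32. With this spread they did not leave out a change of 1 on the log2 scale in either direction. The adjusted p by edgeR's quasi-likelihood test was 0.992, 0.996 and 0.998. Single libraries turned these values. Without saline replicate 2 the change in LPS vs saline was 0.45, and without LPS + GAS replicate 2 the changes in LPS + GAS vs LPS and in LPS + GAS vs saline were −0.61 and −0.66.

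**Figure D2:**
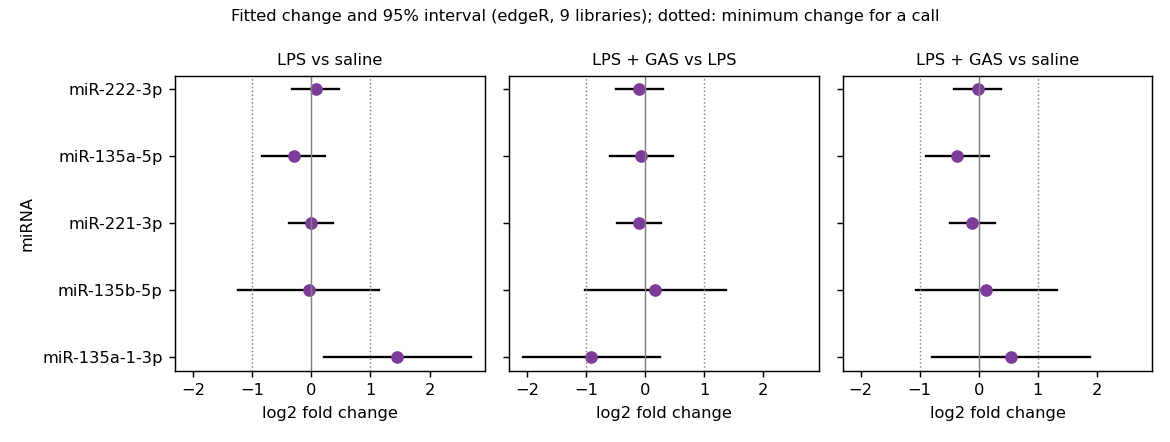
Fitted log2 fold change (points) with its 95% interval (lines) for each member in each of the 3 comparisons (a panel each), from edgeR's fit of the 9 libraries, with dotted lines at the change of 1 needed for a call. The intervals of miR-222-3p, miR-135a-5p and miR-221-3p lie within the dotted lines, those of miR-135b-5p and miR-135a-1-3p reach past them, and only that of miR-135a-1-3p in LPS vs saline leaves out 0.

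The pair miR-135a-5p and miR-135b-5p was also read as a ratio within the library. MiR-135b-5p had 0.135, 0.191 and 0.104 reads per read of miR-135a-5p in the saline group, 0.106, 0.137 and 0.357 in the LPS group and 0.137, 0.333 and 0.125 in the LPS + GAS group. LPS replicate 3 and LPS + GAS replicate 2 stood apart, and the other 7 libraries lay between 0.104 and 0.191. LPS replicate 3 had the lowest level of miR-135a-5p (1659.7 CPM) and the highest of miR-135b-5p in its group (592 CPM). LPS + GAS replicate 2 had the highest miR-135b-5p of all libraries (855 CPM), and its miR-135a-5p was the highest of its group (2569.5 CPM). The mean log2 ratio was −2.84, −2.53 and −2.49, and the differences were 0.31 in LPS vs saline (p = 0.6), 0.047 in LPS + GAS vs LPS (p = 1.0) and 0.36 in LPS + GAS vs saline (p = 0.6) by exact two-sided permutation tests. Without LPS replicate 3 the difference in LPS vs saline was −0.21. When the reads of miR-135b-5p were added to those of miR-135a-5p, as a count that does not rest on base 11 would be, the log2 fold changes were −0.22, −0.014 and −0.24.

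**Figure D3:**
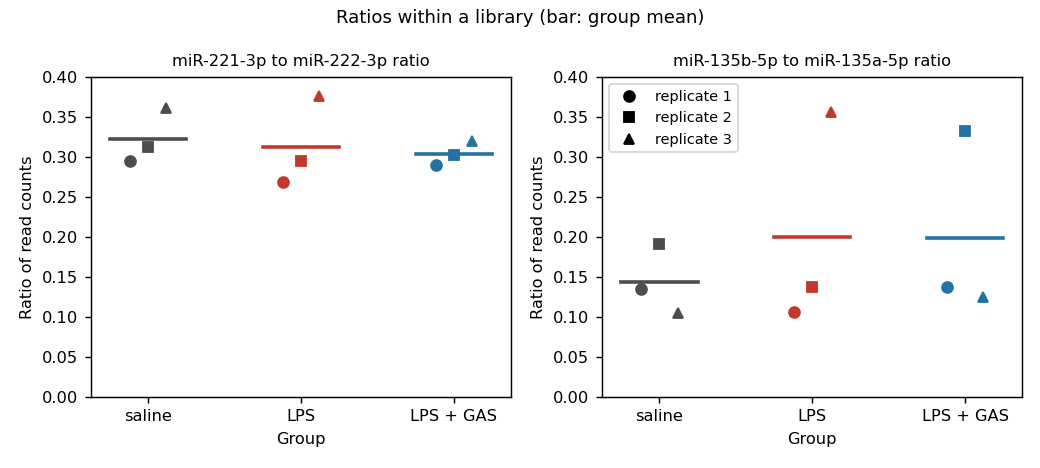
Reads of miR-221-3p per read of miR-222-3p (left) and of miR-135b-5p per read of miR-135a-5p (right) in each library, with symbols for the replicate and a bar at the mean of the saline, LPS and LPS + GAS groups; both axes start at 0. On the left all values lie between 0.268 and 0.376, and on the right LPS replicate 3 and LPS + GAS replicate 2 stand at 0.357 and 0.333, above the other 7 libraries.

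MiR-135a-1-3p was the member with the largest fitted change, at a level where single reads count. It had 4, 5 and 5 reads in saline mice, 6, 21 and 13 in LPS mice and 3, 10 and 7 in LPS + GAS mice. In CPM these were 0.382, 0.442 and 0.504 in the saline group, 0.597, 1.74 and 1.31 in the LPS group and 0.280, 1.01 and 0.674 in the LPS + GAS group. The LPS mice all lay above the saline mice, but LPS replicate 1 exceeded the highest saline library by a single read. By 95% exact Poisson intervals, which cover counting error only, 6 reads allow 2.20 to 13.1 and 5 reads allow 1.62 to 11.7. The LPS + GAS libraries overlapped both other groups.

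Summed over the 3 libraries, miR-135a-1-3p had 14 reads in the saline group (95% exact Poisson interval 7.65 to 23.5), 40 in the LPS group (28.6 to 54.5) and 20 in the LPS + GAS group (12.2 to 30.9). These intervals cover counting error only and leave out the spread between mice, so they do not compare the groups. LPS replicate 2 alone gave 21 of the 40 reads. For LPS vs saline the fitted log2 fold change was 1.45 (standard error 0.56, 95% interval 0.21 to 2.70), the fourth largest of the 628 in size, with an unadjusted p of 0.0220 and an adjusted p of 0.992 by edgeR's quasi-likelihood test. It therefore did not pass the threshold. For LPS + GAS vs LPS it was −0.91 (SE 0.52, −2.07 to 0.24, adjusted p = 0.903 by the same edgeR test) and in LPS + GAS vs saline 0.54 (standard error 0.60, −0.80 to 1.88, adjusted p = 0.998). These comparisons share libraries in pairs, and the LPS libraries enter the former 2 with opposite sign.

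The filter weighs on this member. It asks for at least 10 reads in at least 3 libraries, which miR-135a-1-3p reached in exactly 3, LPS replicates 2 and 3 and LPS + GAS replicate 2. Its place among the tested miRNAs thus rested on these 3 libraries, 2 of them from the LPS group in which it was high, while the other 4 members reached 10 reads in all 9 libraries. The filter thus also favoured the rank of miR-135a-1-3p by size in LPS vs saline, and no conclusion is drawn from that rank. With no filter the values in LPS vs saline and LPS + GAS vs LPS were 1.50 and −0.90. Without LPS + GAS replicate 1, LPS + GAS vs LPS gave −0.54, and LPS + GAS vs saline 0.96.

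Counted together, 0 of the 5 members passed both limits (adjusted p no higher than 0.05, log2 fold change no smaller than 1 in size) in LPS vs saline, where 0.0% of all tested miRNAs did. In LPS + GAS vs LPS it was also 0 of 5, against 0.0%, and in LPS + GAS vs saline 0 of 5, against 0.159%. DESeq2's Wald test and limma-voom also called 0 members. At an unadjusted p under 0.05 by edgeR's quasi-likelihood test there was 1 member in LPS vs saline, miR-135a-1-3p, and 0 in the other comparisons, beside 15, 23 and 21 of the 628 miRNAs. Groups that did not overlap were found for 1 of 5 members in LPS vs saline, higher in the LPS group, where 1.91% of all tested miRNAs were higher without overlap and 3.82% did not overlap in either direction. This member was again miR-135a-1-3p, which passed the filter only through LPS replicates 2 and 3 and LPS + GAS replicate 2. The filter thus favoured it in both counts, and no conclusion is drawn from them. In LPS + GAS against LPS and against saline the groups overlapped for 5 of 5 members, while 8.6% and 7.32% of all tested miRNAs did not overlap (4.14% higher and 4.46% lower in the former, 2.55% higher and 4.78% lower in the latter).

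The other arms of the same hairpins were less abundant than the members they pair with in 9 of 9 libraries. MiR-221-5p had 488 to 941 reads, and miR-221-3p exceeded it by 8.49 to 16.5 times. MiR-222-5p had 1 to 5 reads, and miR-222-3p exceeded it by at least 5223 times. MiR-135b-3p had 5 to 23 reads, and miR-135b-5p exceeded it by 176 to 904 times. The 3p arms of both miR-135a hairpins had together 825 to 3311 times fewer reads than miR-135a-5p. MiR-135a-2-3p had 5, 10 and 5 reads in saline mice, 6, 5 and 7 in LPS mice and 6, 6 and 6 in LPS + GAS mice, with no library above 10 reads. Of these 4 arms 2 had enough reads to be tested and 0 were called. MiR-221-5p changed by 0.026, −0.068 and −0.042 on the log2 scale in the 3 comparisons, and miR-135b-3p by −0.15, 0.53 and 0.39, with standard errors of 0.26 and 0.48 to 0.50.

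The neighbouring miRNA genes gave no call either. Mirlet7g lies 24626 bases from Mir135a-1, and let-7g-5p, a member of the let-7 family of growth-restraining miRNAs, had 19324 ± 4566, 16958 ± 4021 and 16900 ± 1512 CPM with saline, LPS and LPS + GAS (SD, n = 3 mice each). It changed by −0.19, −0.0049 and −0.19 on the log2 scale, each with a standard error of 0.23. Mir1251 lies 64954 bases from Mir135a-2. MiR-1251-5p had 8, 15 and 35 reads in saline mice, 37, 33 and 38 in LPS mice and 22, 35 and 49 in LPS + GAS mice, and changed by 0.87, 0.012 and 0.88 (standard errors 0.50, 0.48 and 0.50). The groups overlapped, since saline replicate 3 was among the higher libraries.

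Of 9 miRNAs linked to inflammation, among them miR-155-5p, miR-146a-5p and both arms of miR-21a, 8 were tested. By edgeR's quasi-likelihood test 0 were called for LPS against saline and 0 for LPS + GAS against LPS, and 1 was higher in LPS + GAS vs saline, miR-21a-3p. Their median log2 fold change was 0.072, 0.34 and 0.13, beside −0.045, 0.0030 and −0.028 over all tested miRNAs. The endothelial list, miR-126a-3p and miR-126a-5p, summed to 14663 to 17141 CPM in the saline group, 13327 to 16791 CPM in the LPS group and 15462 to 16059 CPM in the LPS + GAS group, with 0 of 2 called in each comparison.

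The members differed widely in the spread between mice of the same group. The pooled within-group SD of log2(CPM + 1) was 0.16 for miR-221-3p, 0.20 for miR-222-3p, 0.32 for miR-135a-5p and 0.79 for miR-135b-5p. Of the 185 tested miRNAs with a mean of at least 100 CPM, whose median was 0.26, 10.8% had a smaller SD than miR-221-3p, 22.7% than miR-222-3p, 67.0% than miR-135a-5p and 94.6% than miR-135b-5p. Over all 9 libraries the highest level was 1.42, 1.40, 2.05 and 3.88 times the lowest, in the same order. MiR-135a-1-3p, below 100 CPM, had an SD of 0.30 and a highest level 6.23 times its lowest. At its level the 1 added to the CPM compresses the SD, so this SD cannot be set beside those of the other members.

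**Figure D4:**
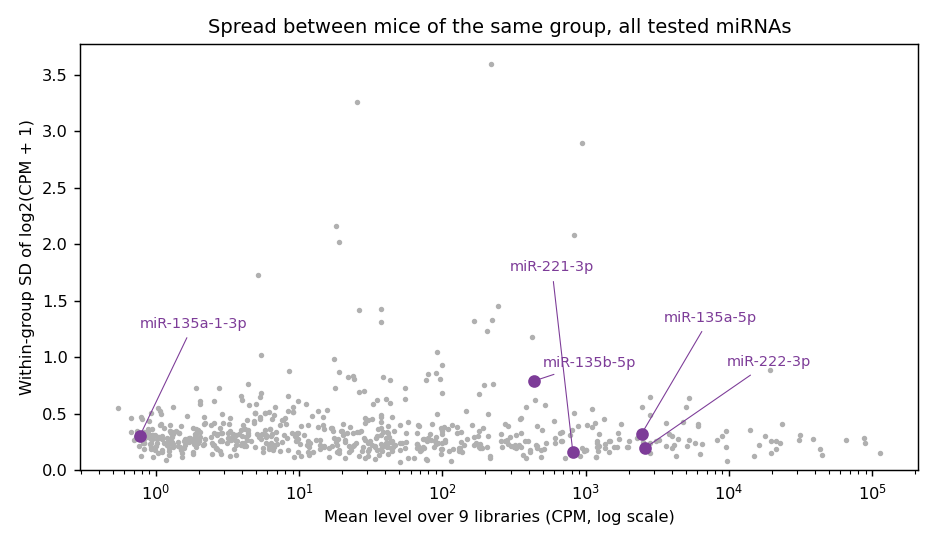
Pooled within-group SD of log2(CPM + 1) (vertical axis) against the mean level over 9 libraries in CPM (horizontal axis, log scale), with a grey point for each of the 628 tested miRNAs and purple points for the members. MiR-221-3p (0.16) and miR-222-3p (0.20) lie low among miRNAs of like level and miR-135b-5p (0.79) lies high. Near 1 CPM, where miR-135a-1-3p lies, the 1 added to the CPM compresses the SD.

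The members were also compared with each other across the 9 libraries, over all 10 pairs, on log2(CPM + 1). MiR-221-3p and miR-222-3p had a Pearson r of 0.55 (exact permutation p = 0.121, adjusted 0.403) and a Spearman rho of 0.52 (exact permutation p = 0.162, adjusted 0.531). Without the 2 libraries farthest from the median of miR-221-3p, r was 0.49. On CPM without TMM it was 0.72, the largest of the 10 pairs in size (exact permutation p = 0.0448, adjusted 0.448). MiR-135a-5p and miR-135b-5p had r = 0.30 (exact permutation p = 0.440, adjusted 0.647) and rho = 0.50 (exact permutation p = 0.178, adjusted 0.531), and r = 0.57 without the 2 libraries farthest from the median of miR-135a-5p. With TMM, the Pearson r largest in size were negative, but the rho largest in size (0.52) was positive. MiR-135b-5p had r = −0.63 with miR-221-3p and r = −0.62 with miR-222-3p (exact permutation p = 0.0696 and 0.0796, adjusted 0.398 each), with rho = −0.47 (exact permutation p = 0.213, adjusted 0.531) in both. Their r was −0.41 and −0.36 without the 2 libraries farthest from the median of miR-221-3p or miR-222-3p. It was −0.31 and −0.30 on CPM without TMM, and −0.67 and −0.63 on values centred on their group means. None of the 10 pairs passed an adjusted p of 0.05 by the exact permutation test, and centring each value on its group mean changed none of these calls.

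**Figure D5:**
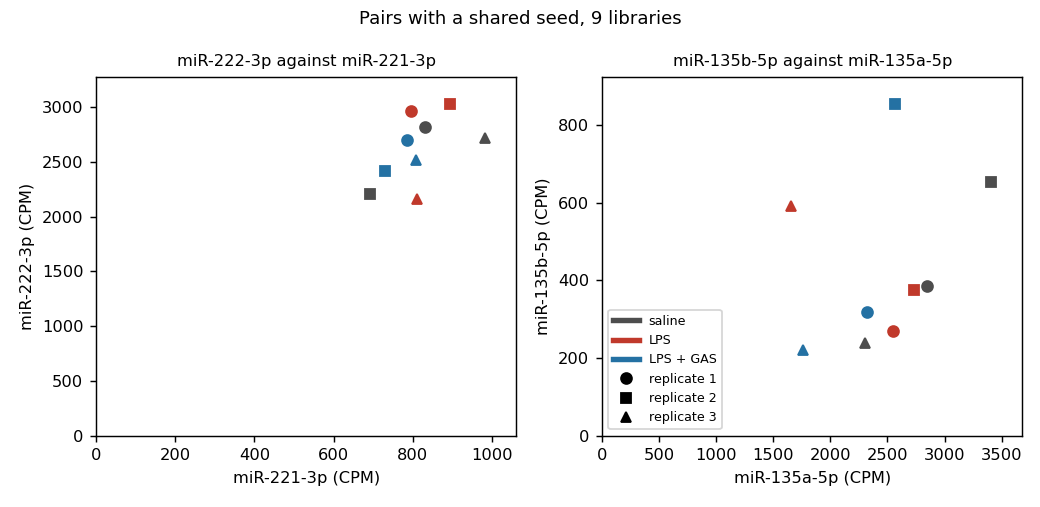
Level of miR-222-3p against miR-221-3p (left) and of miR-135b-5p against miR-135a-5p (right), in CPM on linear axes from 0, 1 symbol per mouse and a colour per group. The 3 groups are mixed in both panels, and on the right LPS + GAS replicate 2 and LPS replicate 3 lie above the other libraries of like miR-135a-5p level.

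Among the other tested miRNAs with a mean of at least 10 CPM (366 compared for each member), those with the most similar pattern over the 9 libraries were picked by Pearson's r as a description, with no test. For miR-221-3p they were miR-134-3p (r = 0.87), miR-330-5p (0.84) and miR-337-5p (0.82), and for miR-222-3p they were miR-669o-5p (0.87), miR-666-5p (0.84) and miR-668-3p (0.84). MiR-135a-5p was closest to miR-29c-5p (0.88), miR-3068-5p (0.87) and miR-181c-3p (0.81). MiR-135b-5p was closest to miR-411-3p (0.90), miR-132-5p (0.87) and miR-212-3p (0.87). The last pair are products of 1 gene cluster known to respond to neuronal activity. MiR-135a-1-3p was closest to miR-7044-3p (0.89), miR-191-3p (0.74) and miR-128-3p (0.72). All points share library depth and normalization, and no member was among the nearest of another, since members were left out.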

How the data were processed

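The 9 hippocampal small RNA libraries (3 per group) were read from a single table in which the authors deposited, for each of 1448 mature miRNAs, the read counts per library, not normalized, and a second whole number named exp. How exp was made is not stated; the aligner and the miRBase release are not given in the sources consulted; per the labels the build was GRCm38.p6. The exp values, at or below the counts in every row (0 exceptions), served as an alternative. The authors' own averages and comparisons (fold changes, p and q values) in the table were not used. There were 0 per-library columns without a mapped sample. Of the rows, 27 share a mature sequence with another row, none of them a member.

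In R 4.3.3, edgeR 4.0.16 kept the 628 miRNAs that reached 10 reads in 3 or more of 9 libraries, computed TMM factors (0.914 to 1.19) and fitted the 9 libraries with a mean per group (glmQLFit). Each contrast was tested with glmQLFTest and adjusted by Benjamini-Hochberg over the 628 miRNAs. A call needed an adjusted p no higher than 0.05 and a log2 fold change no smaller than 1 in size, the limits of the study's methods. Standard errors and 95% intervals come from the fit. Ratios of read counts within a library were compared by exact permutation over the 20 divisions of 6 libraries, and correlations over all 362880 pairings of 9 libraries, in Python with scipy 1.17.1. The labels do not say that the libraries of a group are separate mice. The p-values therefore rest on the spread between these libraries, which may be technical. The fit was tested on simulated data.

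Alternatives were DESeq2's size factors, the DESeq2 1.42.0 Wald test, limma-voom (limma 3.58.1), no filter, at least 50 reads, robust fitting, a replicate block, only the 2 groups compared, the exp values, no minimum fold change, and each library left out in turn. Adding the reads of miR-135b-5p to miR-135a-5p was chosen after seeing the data. Libraries of the same number deviated from their group means together in LPS + GAS vs saline (correlations 0.296 to 0.370 over 3 pairs) but not in LPS vs saline (−0.284 to 0.317) or LPS + GAS vs LPS (−0.274 to 0.0466). This pairing rests on the correlations alone. The miRNAs named are the members, the other arms of their hairpins, their genomic neighbours, for each member the 3 most similar miRNAs, and examples from the marker and inflammation lists. Members, lists and this rule were chosen with earlier results of these data known. Of the 5 members, 4 matched a RefSeq mature entry (all but miR-135b-5p), and hairpins and coordinates are RefSeq's on GRCm38. At 10119758 to 11457656 reads per library, 10 reads are close to 1 CPM.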

Additional observations from a re-analysis of the deposited data

How the results depend on the processing

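The changes of the 5 members in the 3 comparisons were recomputed 274 times under the alternatives, 232 times with the same sign and 42 times with the opposite one, and 0 passed the threshold (lowest adjusted p 0.661). Robust fitting and no minimum fold change left each fitted value as it was, so their part of the 232 was fixed in advance. Under all alternatives that gave a value, miR-135a-1-3p kept its sign in each comparison, and so did miR-135a-5p against saline, miR-222-3p in LPS vs saline and miR-221-3p in LPS + GAS vs LPS. MiR-135a-1-3p gave no value without LPS replicate 2, LPS replicate 3 or LPS + GAS replicate 2, which carried it past the filter. Its sign without these libraries is therefore not known. The values that turned were 0.11 or less in size, other than in fits that left out 1 library. For miR-221-3p in LPS vs saline they were 0.057 with DESeq2's size factors, 0.044 with no filter, 0.036 with at least 50 reads, 0.057 with the DESeq2 Wald test, 0.011 with limma-voom, 0.048 with only the 2 groups compared and 0.052 with exp values. For miR-135b-5p in LPS vs saline they were 0.0040 with size factors, 0.0041 with the Wald test and 0.0039 with exp values, and in LPS + GAS vs saline −0.0032 with limma-voom. For miR-222-3p in LPS + GAS vs saline they were 0.038 with size factors and the Wald test, 0.031 with no filter, 0.024 with at least 50 reads and 0.024 with exp values. The cause of these turns was not tested.

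With the replicate block, miR-221-3p and miR-135b-5p in LPS vs saline were 0.010 and 0.11 and miR-135b-5p in LPS + GAS vs LPS was −0.077. Libraries of the same number deviated together in LPS + GAS vs saline, though the labels state no pairing. There miR-135a-5p was −0.36 with a standard error of 0.14 in place of 0.24 (adjusted p = 0.998 by edgeR's quasi-likelihood test). In LPS vs saline, where they did not all deviate together, miR-135a-5p was −0.32 with the same change in standard error (adjusted p = 0.997 by the same edgeR test). The block changed no call, and the counts of calls stayed at 0, 0 and 1.

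With each library left out in turn, LPS vs saline gave −0.068 to 0.13 for miR-221-3p and −0.40 to 0.45 for miR-135b-5p. LPS + GAS vs LPS gave −0.23 to 0.0084 for miR-222-3p, −0.25 to 0.10 for miR-135a-5p and −0.61 to 0.54 for miR-135b-5p. LPS + GAS vs saline gave −0.17 to 0.024 for miR-221-3p, −0.069 to 0.094 for miR-222-3p and −0.66 to 0.64 for miR-135b-5p. MiR-135a-1-3p no longer reached the filter without LPS replicate 2, LPS replicate 3 or LPS + GAS replicate 2, and had 1.41 to 1.77 in LPS vs saline in the other 6 fits. It had too few reads for the minimum of 50, and for the filter with only the saline group and another group fitted. The log2 ratio of miR-221-3p to miR-222-3p differed by −0.19 to 0.050 in LPS vs saline, −0.13 to 0.11 in LPS + GAS vs LPS and −0.14 to 0.0032 in LPS + GAS vs saline. That of miR-135b-5p to miR-135a-5p differed by −0.21 to 0.67, −0.40 to 0.57 and −0.090 to 0.62. The number of miRNAs called among all tested was 0 to 1 in LPS vs saline (1 without LPS replicate 2 or LPS + GAS replicate 3) and 0 to 1 in LPS + GAS vs LPS (1 without LPS replicate 2). With no filter it was 2 in LPS vs saline, with the DESeq2 Wald test 1, and none of these was a member.

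Of the 10 correlations, 3 changed sign, and none passed the threshold. For miR-221-3p and miR-135a-5p r was 0.16 on CPM without TMM and 0.12 without the 2 farthest libraries. For miR-222-3p and miR-135a-1-3p these were 0.33 and 0.17, and 0.096 with exp values. For miR-135a-5p and miR-135a-1-3p they were 0.033 and 0.052. The 3 libraries per group and, for miR-135a-1-3p, 3 to 21 reads per library limit what could be detected.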
